A study of Mus musculus with 2 samples.

Results

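The 4 genes described here are *Mpo*, *Elane*, *Prtn3* and *Ctsg*, the protein genes of the primary granules of neutrophils, taken from the deposited matrix by their symbols, 1 row each, out of 27998 genes. They were measured by 10x Genomics 3′ single-cell RNA-seq in mouse bone marrow cells of *MLL-AF9* leukemia, an acute myeloid leukemia made by retroviral delivery of a fusion oncogene to lineage-depleted marrow and grown in lethally irradiated recipients. All donors were *Kat2a* Flox/Flox and all received pIpC, an interferon inducer. Donors of the *Kat2a* WT group were *Mx1-Cre* -/- and donors of the *Kat2a* KO group *Mx1-Cre* +/-, so that only the KO group carried the interferon-driven recombinase that excises *Kat2a*, a histone acetyltransferase gene. Marrow for transduction was taken 4 to 6 weeks after pIpC. Terminal leukemias, 5 WT and 4 KO, were frozen, thawed and pooled by genotype, and live cells with the YFP reporter of the retrovirus were sorted, which gave 1 library per genotype. With 1 library each there is no replicate check of any difference, the leukemias within a pool cannot be told apart, and every interval below is a 95% interval that covers counting error only.

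Primary granules, also called azurophil granules, are the first granules to form in the neutrophil lineage, at the promyelocyte stage, and their contents are transcribed there and then shut down while the genes of the secondary granules come on. *Mpo* encodes myeloperoxidase, a heme enzyme that makes hypochlorous acid from hydrogen peroxide. *Elane* (neutrophil elastase), *Prtn3* (proteinase 3) and *Ctsg* (cathepsin G) encode serine proteases that are packed with the proteoglycan serglycin and trimmed to their active form by the protease encoded by *Ctsc*.

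Both genotypes share 1 matrix, and the library of each cell was read from the number ending its barcode, following the code published with the study. The library labelled *Kat2a* WT, called WT-labelled below, held 4069 cells and 11892536 UMIs (unique molecular identifiers, 1 for each transcript captured) and the library labelled *Kat2a* KO, called KO-labelled below, held 4240 cells and 8585416 UMIs, with 28 barcode sequences in both. The cells that showed 500 or more genes, 3866 and 3545 of them, were kept, with medians of 2588.5 and 1884 UMIs per cell. The targeted gene went against the labels: *Kat2a* stood at 12.2 CPM (UMIs per 1000000, 10.2 to 14.3, from 142 UMIs) in the WT-labelled library and at 95.8 CPM (89.1 to 103, from 759 UMIs) in the KO-labelled library. A 3′ assay reads the last exon, which the study describes as retained and transcribed after excision, so this level cannot tell the excised from the intact gene, and each direction given here rests on the labels. Among the marker lists, granulocyte genes were the most abundant, at 78743 and 76242 CPM over 13 genes in WT-labelled and KO-labelled cells, and the T or NK cell genes were nearly absent, with 11 and 7 UMIs over 3 genes.

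*Elane* and *Prtn3* (ENSMUSG00000020125 and ENSMUSG00000057729) lie side by side on chromosome 10, both on the plus strand, at 79886247 to 79888215 and 79874476 to 79883174 in the GENCODE M21 annotation of GRCm38, the assembly that the build name mm10 in the submitters' notes stands for. The gap between them is 3072 bp. *Mpo* (ENSMUSG00000009350) is on the plus strand of chromosome 11, from 87793581 to 87804413, and *Ctsg* (ENSMUSG00000040314) on the minus strand of chromosome 14, from 56099881 to 56102574. On the opposite strand, *Gm11505* overlaps *Mpo* and *Plppr3* overlaps *Prtn3*. The files hold only 19 and 14 UMIs of *Gm11505* and 302 and 196 of *Plppr3* in the kept WT-labelled and KO-labelled cells, against 10317 or more of each of the 4 genes.

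The promoters are shown because the 4 genes were detected in the same cells although they sit at 3 loci, and because myeloid factors such as PU.1, C/EBP, Myb and the Runx family are known to act on genes of this kind. Each run is the RefSeq window of GRCm38.p6 from 250 bases before the RefSeq start to 50 bases from it, 300 bases in all, read along the gene's strand, at chr11:87793534-87793833 for *Mpo*, chr10:79886062-79886361 for *Elane*, chr10:79879417-79879716 for *Prtn3* and chr14:56102525-56102824 for *Ctsg*. Capitals mark the letters GAGGAA, the core of a PU.1 motif.
Mpo: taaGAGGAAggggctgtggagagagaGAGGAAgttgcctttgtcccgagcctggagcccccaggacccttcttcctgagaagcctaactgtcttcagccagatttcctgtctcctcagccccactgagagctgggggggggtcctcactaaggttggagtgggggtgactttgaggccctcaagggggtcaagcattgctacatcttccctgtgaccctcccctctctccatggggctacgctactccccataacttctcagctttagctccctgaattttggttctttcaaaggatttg
Elane: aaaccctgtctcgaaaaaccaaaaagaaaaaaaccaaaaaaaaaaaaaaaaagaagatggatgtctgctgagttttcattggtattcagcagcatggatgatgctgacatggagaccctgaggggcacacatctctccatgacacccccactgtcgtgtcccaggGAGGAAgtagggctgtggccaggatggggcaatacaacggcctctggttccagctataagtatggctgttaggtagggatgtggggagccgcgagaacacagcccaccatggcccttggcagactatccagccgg
Prtn3: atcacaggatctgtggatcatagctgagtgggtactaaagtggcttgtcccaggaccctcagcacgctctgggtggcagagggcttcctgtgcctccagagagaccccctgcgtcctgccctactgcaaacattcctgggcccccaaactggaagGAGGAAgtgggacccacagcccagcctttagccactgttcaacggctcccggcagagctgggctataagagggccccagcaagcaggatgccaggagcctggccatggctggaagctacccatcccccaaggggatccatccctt
Ctsg: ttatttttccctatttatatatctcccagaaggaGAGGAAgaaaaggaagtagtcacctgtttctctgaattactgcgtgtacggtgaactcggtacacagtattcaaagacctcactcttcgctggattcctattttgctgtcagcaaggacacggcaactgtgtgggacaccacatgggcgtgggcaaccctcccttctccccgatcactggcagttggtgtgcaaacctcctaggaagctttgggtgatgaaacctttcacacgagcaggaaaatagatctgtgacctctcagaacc

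GAGGAA, searched on both strands, was present in all 4 windows, at positions −247 and −224 for *Mpo*, −85 for *Elane*, −95 for *Prtn3* and −216 for *Ctsg*, counted with the RefSeq start as 0. Of 32851 RefSeq promoter windows of the same length, 28.3% held it. The Myb letters AACNG were also in all 4, but in 80.3% of all windows as well. The Runx letters TGNGGT were in 1 of 4 (*Ctsg*) against 45.8% of all windows, the C/EBP letters TTNNGNAA in 0 of 4 against 40.7%, and the Gabpa letters CCGGAA in 0 of 4 against 14.9%. A match of letters is a description of these windows and not a bound site, and enhancers were not searched. For *Mpo*, *Elane* and *Prtn3* the RefSeq start is not the GENCODE start, so positions counted from the latter would differ. The GENCODE starts of *Mpo* (87793581) and *Elane* (79886247) lie inside their windows, and that of *Prtn3* (79874476) lies before its window.

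Primary granule transcripts were abundant in both libraries and, at the cells' own depth, ordered alike within them. The 4 genes together gave 1.40% of all UMIs of the kept WT-labelled cells and 1.23% of those labelled KO. *Elane* was first in both, at 8056 CPM (8005 to 8108) in the WT-labelled library and 7386 CPM (7327 to 7446) in the KO-labelled library, which ranked it 7 and 11 among all genes. *Prtn3* followed at 2789 CPM (2759 to 2820) and 2136 CPM (2104 to 2168), *Ctsg* at 1996 CPM (1970 to 2022) and 1486 CPM (1460 to 1514), and *Mpo* was last at 1199 CPM (1179 to 1219) and 1303 CPM (1278 to 1328). Because each captured 3′ end counts once, gene length does not enter these levels. No neighbouring intervals in the order overlapped. With each KO-labelled cell thinned to 1000 UMIs, *Mpo* at 1.13 and *Ctsg* at 1.11 UMIs per cell were about level.

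In kept cells at their own depth the libraries differed by less than 1.5-fold in each of the 4 genes. Expressed as the log2 ratio of CPM, KO-labelled over WT-labelled, the values were 0.12 (0.08 to 0.16) for *Mpo*, −0.13 (−0.14 to −0.11) for *Elane*, −0.39 (−0.41 to −0.36) for *Prtn3* and −0.43 (−0.46 to −0.39) for *Ctsg*. In the same kept cells 6.98% of the 2737 genes seen in 10% or more of cells were past 1.5-fold in either direction, and 0 of the 4 were among them. In cells matched on total UMIs, *Mpo* was past 1.5-fold, at 0.69 (0.64 to 0.74), where 14.3% of the 2737 genes were. The median ratio over these 2737 genes was 0.07. The KO-labelled library therefore held relatively more *Mpo* and less *Prtn3* and *Ctsg* among the UMIs of the 4 genes. *Mpo* made up 8.54% of these UMIs (8.40 to 8.68) in the WT-labelled library and 10.6% (10.4 to 10.8) in the KO-labelled library, and *Ctsg* 14.2% (14.05 to 14.39) and 12.1% (11.9 to 12.3).

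The direction for *Elane* turned with the weight given to deep cells. With each cell thinned to 1000 UMIs, so that all 3800 and 3351 cells that reach this depth count equally (66 and 194 kept WT-labelled and KO-labelled cells fell short), *Elane* averaged 5.91 UMIs per cell in the WT-labelled library and 6.91 in the KO-labelled library, a log2 ratio of 0.23 (0.20 to 0.25) in place of −0.13. The 4 genes summed turned likewise, from −0.19 (−0.20 to −0.18) at the cells' own depth to 0.10 (0.08 to 0.12) after thinning. *Ctsg* averaged 1.40 and 1.11 UMIs and stayed lower in the KO-labelled library after thinning, but stood at 0.08 (0.04 to 0.12) when cells of the libraries were matched on total UMIs, 2772 from each. *Mpo* at 0.826 and 1.13 UMIs was higher in the KO-labelled library and *Prtn3* at 2.38 and 2.14 UMIs lower under all 11 alternatives, with log2 ratios from 0.04 to 0.69 and from −0.50 to −0.16.

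**Figure D1:**
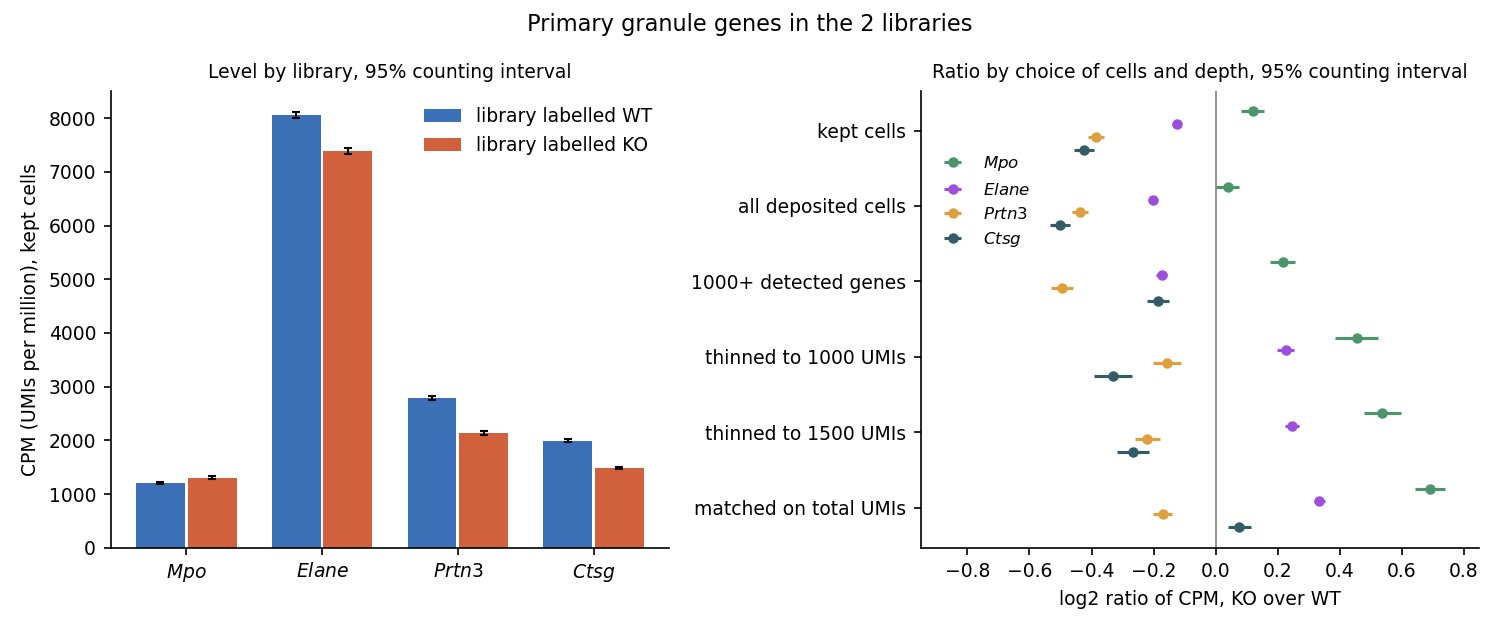
Left, CPM of each primary granule gene in the kept cells of each library, as bars from 0 with 95% Poisson intervals. Right, the log2 ratio of CPM (KO-labelled library over WT-labelled library) under 6 choices of cells and depth, with 95% counting intervals. *Mpo* lies right of 0 and *Prtn3* left of 0 throughout, while *Elane* moves from −0.13 in kept cells to 0.23 in cells thinned to 1000 UMIs.

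Set against depth, all 4 genes were higher in cells with more UMIs. In the WT-labelled library the level of *Elane* was 1091 CPM in the shallowest of 4 depth groups of kept cells, of nearly equal size, and 12314 CPM in the deepest, and *Mpo* went from 131 to 2065 CPM and *Ctsg* from 280 to 3259 CPM. In the KO-labelled library the same groups gave 3465 and 8825 CPM of *Elane*, 477 and 1737 CPM of *Mpo* and 429 and 2307 CPM of *Ctsg*. *Prtn3* stood apart in the KO-labelled library, with 1982 CPM (1896 to 2070) in the shallowest and 2214 CPM (2165 to 2263) in the deepest group, against 1441 and 3577 CPM in the WT-labelled library. Where depth groups of the libraries had nearly the same median depth, 2170 UMIs in WT-labelled group 2 and 2172.5 in KO-labelled group 3, the levels were 303 and 1311 CPM for *Mpo*, 3197 and 7954 CPM for *Elane*, 1850 and 2108 CPM for *Prtn3* and 737 and 1103 CPM for *Ctsg*. Each of the 4 was higher in the KO-labelled group there. *Prtn3* did not keep this direction in deeper cells. It was at 2712 CPM in WT-labelled group 3 (median 3169 UMIs) and 2214 CPM in KO-labelled group 4 (median 3498 UMIs). In WT-labelled group 1 (1428 UMIs) and KO-labelled group 2 (1619 UMIs) it was at 1441 and 2091 CPM. These groups are different parts of the 2 libraries' ranges, and whether depth in these cells follows cell size, cell state or capture was not tested.

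**Figure D2:**
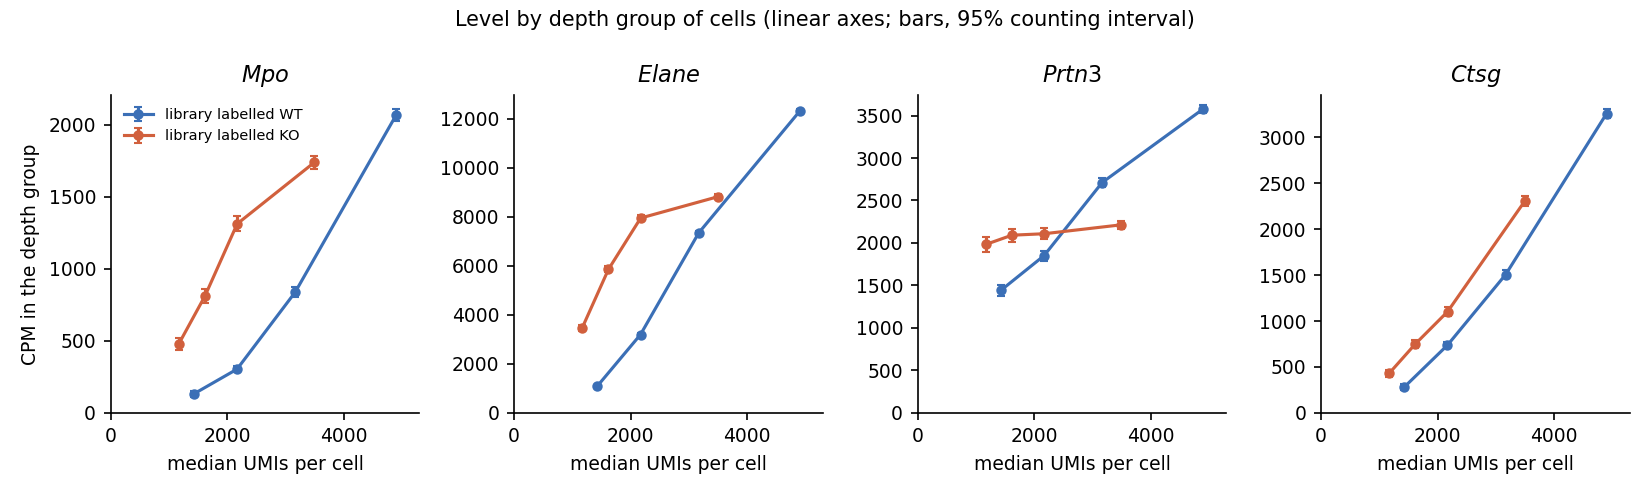
CPM of each gene (vertical axis, linear, from 0) against the median UMIs per cell of each of 4 depth groups of kept cells (horizontal axis), with 95% Poisson intervals, for both libraries. All lines climb with depth, and that of *Prtn3* in the KO-labelled library is nearly flat, from 1982 to 2214 CPM.

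Within each library the 4 genes were concentrated in part of the cells, *Mpo* most and *Prtn3* least. In cells thinned to 1000 UMIs, a UMI of *Mpo* was seen in 22.03% of cells (20.7 to 23.4) of the WT-labelled library and 26.2% (24.7 to 27.8) of the KO-labelled library, and of *Elane* in 57.5% (55.9 to 59.1) and 64.1% (62.5 to 65.8). At the cells' own depth these shares were 30.4 and 31.9% for *Mpo* and 67.5 and 71.1% for *Elane*. The shares of cells with *Prtn3*, 67.8% (66.3 to 69.3) and 66.3% (64.7 to 67.9), and with *Ctsg*, 37.5% (35.96 to 39.1) and 38.9% (37.2 to 40.6), did not differ beyond counting error in cells thinned to 1000 UMIs, the difference labelled KO minus WT lying between −3.69 and 0.676 percentage points for *Prtn3* and between −0.873 and 3.64 for *Ctsg*. At own depth the shares were 79.0 and 76.5% for *Prtn3* and 49.4 and 48.0% for *Ctsg*. The interval excluded 0 for *Prtn3* at own depth (−4.39 to −0.599) and with 1500 UMIs (−4.72 to −0.258), and for *Ctsg* with 1500 UMIs (1.32 to 6.56). Of thinned cells, 2.61% labelled WT and 1.04% labelled KO held 10 or more UMIs of *Ctsg*.

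The tenth of thinned cells with most UMIs of a gene held 78.9 and 73.8% of all its UMIs for *Mpo* in WT-labelled and KO-labelled cells, 57.9 and 55.4% for *Ctsg*, 50.9 and 47.5% for *Elane*, and 36.9 and 37.1% for *Prtn3*. A single kept cell reached 128 UMIs of *Mpo*, 402 of *Elane*, 119 of *Prtn3* and 134 of *Ctsg* in the WT-labelled library, and 121, 269, 48 and 68 in the KO-labelled library, at the cells' own depths. By Fano factor, the variance over the mean, *Elane* ranked 7 in both libraries among the 2737 genes, *Mpo* 15 and 12, *Ctsg* 17 and 34, and *Prtn3* 32 and 54. The CV (standard deviation over mean) of thinned counts was 2.74 and 2.51 for *Mpo*, 1.65 and 1.54 for *Elane*, 1.19 in both for *Prtn3* and 1.92 and 1.84 for *Ctsg*. As log2 ratios, labelled KO over WT, these are −0.13, −0.10, 0.00 and −0.06, beside a median of 0.02 over the 2737 genes. None of the 4 ratios was above that median, and no interval is given for a CV from 1 library. These CVs were not compared at equal means. The means, labelled WT and KO, were 0.826 and 1.13 UMIs for *Mpo* and 5.91 and 6.91 for *Elane*. They were 2.38 and 2.14 for *Prtn3* and 1.40 and 1.11 for *Ctsg*. Ranked by CV from the highest, the 4 genes stood low among the 2737, unlike their Fano ranks. *Mpo* ranked 1816 and 1993, *Ctsg* 2307 and 2346, *Elane* 2432 and 2481, and *Prtn3* 2588 and 2598.

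Detection of the 4 genes was linked across cells. How far the detection share of each gene alone would give the patterns below was not tested. Of thinned cells, 15.7% (14.6 to 16.9) in the WT-labelled library and 15.6% (14.4 to 16.9) in the KO-labelled library held all 4, and 19.2% (17.9 to 20.4) and 15.6% (14.4 to 16.9) held none. Most cells with a UMI of *Mpo* also held the others, in that 89.5 and 87.0% of them held *Elane*, 92.1 and 91.1% held *Prtn3*, and 77.4 and 68.7% held *Ctsg*. Of cells without *Mpo*, 48.5 and 56.0% held *Elane*. Among cells with exactly 1 of the 4, it was *Prtn3* in 60.9% (57.8 to 64.0 of 982 cells) in the WT-labelled library and in 45.0% (41.5 to 48.5 of 804 cells) in the KO-labelled library, *Elane* in 29.1% and 39.6%, *Ctsg* in 7.94% and 12.4%, and *Mpo* in 2.04% and 2.99%. Among cells with exactly 3, the missing gene was *Mpo* in 76.5% (73.1 to 79.7) labelled WT and 59.1% (55.2 to 62.8) labelled KO, and *Ctsg* in 16.8% (14.01 to 19.8) and 30.1% (26.6 to 33.8). The trio of *Mpo*, *Elane* and *Prtn3* without *Ctsg* was seen in 112 cells of the WT-labelled library and in 198 of the KO-labelled library.

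Spearman correlations across thinned cells describe the same linkage, with cells of 1 library sharing its depth and pooled leukemias. Over the 6 pairs rho ran from 0.41 to 0.57 in the WT-labelled library (3800 cells) and from 0.35 to 0.49 in the KO-labelled library (3351 cells). *Elane* and *Ctsg*, on different chromosomes, gave the highest value in the WT-labelled library, at 0.57, and 0.40 in the KO-labelled library. The neighbours *Elane* and *Prtn3* gave 0.55 and 0.49, which was the highest in the KO-labelled library. *Prtn3* and *Ctsg* gave 0.48 and 0.35, and *Mpo* and *Prtn3* 0.41 and 0.42, the single pair not lower in the KO-labelled library at 1000 UMIs. With 1500 UMIs the neighbours gave the highest value in the WT-labelled library too, at 0.61 against 0.60 for *Elane* and *Ctsg*, and at own depth *Mpo* and *Prtn3* gave 0.48 and 0.46.

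The genes whose counts followed the sum of the 4 most closely, by mean rho over the libraries, were *Plac8*, a gene of early myeloid cells (0.53 and 0.40 in WT-labelled and KO-labelled cells), *Srgn*, which encodes serglycin (0.47 and 0.37), *Ms4a3*, a marker of granulocyte-monocyte progenitors (0.39 and 0.34), and *Cmtm7* (0.42 and 0.28). The other 6 of the first 10 encode ribosomal proteins, *Rpl32*, *Rps6*, *Rpl13*, *Rps18*, *Rps19* and *Rpl3*. The 5 lowest were *Anxa1* (−0.47 and −0.34), *Lcn2* (−0.47 and −0.31), *Ifitm6*, *Ngp* and *Lyz2*, which are genes of later granulocytes or of mature myeloid cells. Over 2733 genes the median rho with the sum was 0.03 and 0.02. *Ms4a3* was first for *Elane* alone (0.42 and 0.38), while *Plac8* was first for *Mpo*, *Prtn3* and *Ctsg*.

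Primary granule transcripts were compared with those of the secondary granules, the next to form, by counting in each thinned cell the UMIs of *Ltf*, *Camp*, *Ngp*, *Lcn2* and *Mmp8*. The classes of 0, 1 to 2, 3 to 9 and 10 or more UMIs held 422, 948, 561 and 1869 WT-labelled cells and 247, 777, 579 and 1748 KO-labelled cells. These are ranges of a count and not cell types, and 115 and 117 cells lay at 8 to 12 UMIs, next to the last limit. *Mpo* differed most across them. In the WT-labelled library it stood at 1562, 1499, 1143 and 223 CPM from the first class to the last, and in the KO-labelled library at 1931, 2109, 1798 and 363 CPM. *Ctsg* differed nearly as much, from 2438 to 451 CPM and from 1968 to 479 CPM, and *Prtn3* less. *Prtn3* stood at 3346, 3422, 3381 and 1336 CPM in the WT-labelled library and at 2769, 2822, 3399 and 1325 CPM in the KO-labelled library, where its highest level was at 3 to 9 UMIs.

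*Elane* had its highest level at 3 to 9 secondary granule UMIs in both libraries. It stood at 7348, 7364, 9574 and 3742 CPM in the WT-labelled library and at 6142, 7057, 10896 and 5624 CPM in the KO-labelled library. In cells with 10 or more secondary granule UMIs *Elane* made up 65.1% (64.2 to 66.0) and 72.2% (71.4 to 72.9) of the UMIs of the 4 genes, against 50.01 and 47.9% in cells with none. The log2 ratio of the last class over the first was −2.81 and −2.41 for *Mpo*, −2.44 and −2.04 for *Ctsg*, −1.32 and −1.06 for *Prtn3*, and −0.97 and −0.13 (−0.21 to −0.05) for *Elane* in WT-labelled and KO-labelled cells. For *Elane* in the KO-labelled library the direction turned to 0.13 (0.02 to 0.24) with cells thinned to 1500 UMIs. Secondary granule UMIs take part of the fixed total, up to 321 of 1000 UMIs in 1 cell labelled WT and 362 in 1 labelled KO.

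The libraries were also set against each other class by class. *Mpo* was higher in the KO-labelled library in all 4 classes, with log2 ratios of 0.31 (0.13 to 0.48), 0.49 (0.39 to 0.60), 0.65 (0.51 to 0.80) and 0.70 (0.52 to 0.89). *Elane* went from −0.26 (−0.35 to −0.17) in cells without secondary granule UMIs to 0.59 (0.54 to 0.63) in cells with 10 or more. *Ctsg* was lower in the KO-labelled library in the first 3 classes, at −0.31, −0.43 and −0.24, and at 0.09 (−0.05 to 0.23) in the last, and *Prtn3* was at −0.27 and −0.28 in the first 2 and within counting error of 0 in the others. In the last class a UMI of *Elane* was seen in 51.7% (49.4 to 54.0) of WT-labelled cells and 67.8% (65.5 to 70.0) of KO-labelled cells. That class has no upper limit, and whether both libraries hold the same kinds of cells within it was not tested.

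**Figure D3:**
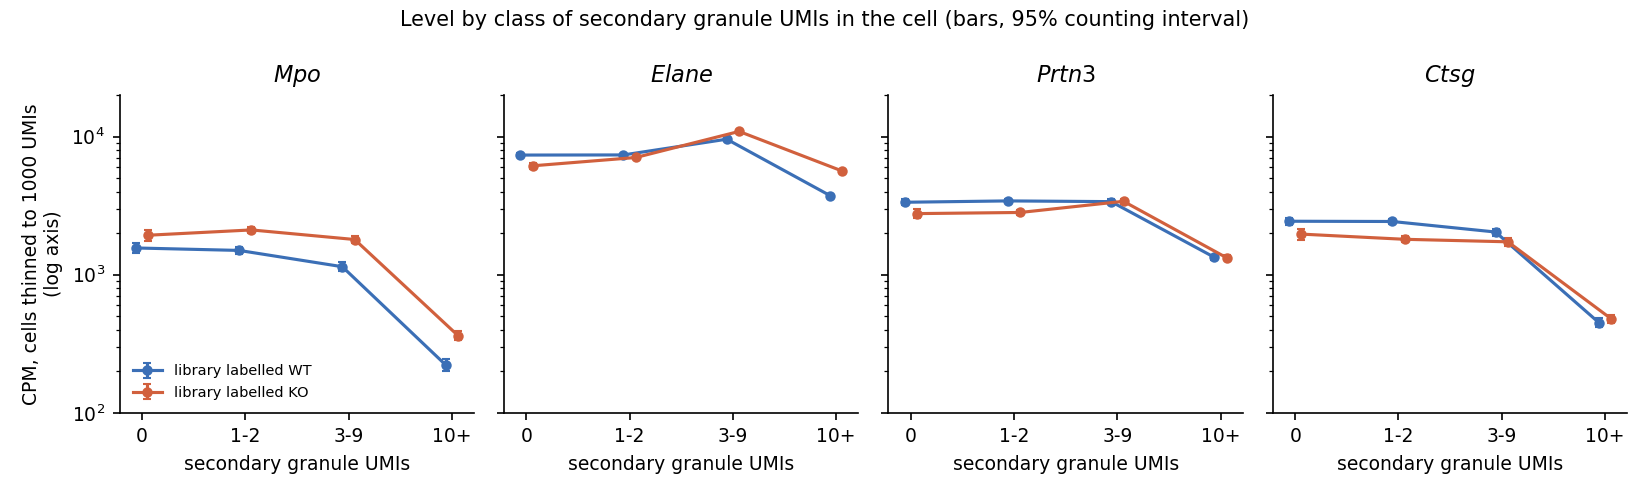
CPM of each gene (vertical log axis) in cells thinned to 1000 UMIs, by class of secondary granule UMIs in the cell (horizontal axis), for both libraries, with 95% Poisson intervals. *Mpo* and *Ctsg* drop furthest in the last class, to 223 and 451 CPM in the WT-labelled library, and *Elane* peaks at 3 to 9 UMIs, at 9574 and 10896 CPM.

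To see the genes across cell states, kept cells were grouped into 12 clusters from 780 variable genes without the 4 themselves, and the clusters were numbered by the summed level of the 4. A cluster was given a class name only from marker genes, and the others are called by their leading genes. *Elane* was highest in cluster 1, led by the mitotic genes *Ube2c*, *Aurka* and *Ccnb1*, and in cluster 2, led by *Clec4b2*, *Nkg7* and *Prss57*, the latter a serine protease gene near *Elane*. It stood there at 20199 and 18548 CPM in the WT-labelled library and 19032 and 20005 CPM in the KO-labelled library. *Mpo* in the WT-labelled library was highest in cluster 3, led by *C1qbp*, *Srm* (spermidine synthase) and *Hspd1* (a mitochondrial chaperone), at 2870 CPM, and *Ctsg* was highest there in both, at 4677 and 3816 CPM. The granulocyte-like clusters 11 and 12 with *Mmp9*, *Lcn2* and *Ltf* and the macrophage-like cluster 10 with *Apoe*, *Ccl6* and *Ctss* had the lowest summed levels. Clusters 4 and 8 also took the granulocyte class by their markers, and their summed levels were higher. These were 10169 and 5493 CPM labelled WT and 10542 and 6847 CPM labelled KO. From the lowest to the highest cluster *Mpo* spanned 109-fold and 96.3-fold in WT-labelled and KO-labelled cells, *Ctsg* 70.8-fold and 78.0-fold, *Elane* 61.7-fold and 53.7-fold, and *Prtn3* 9.12-fold and 8.22-fold.

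**Figure D4:**
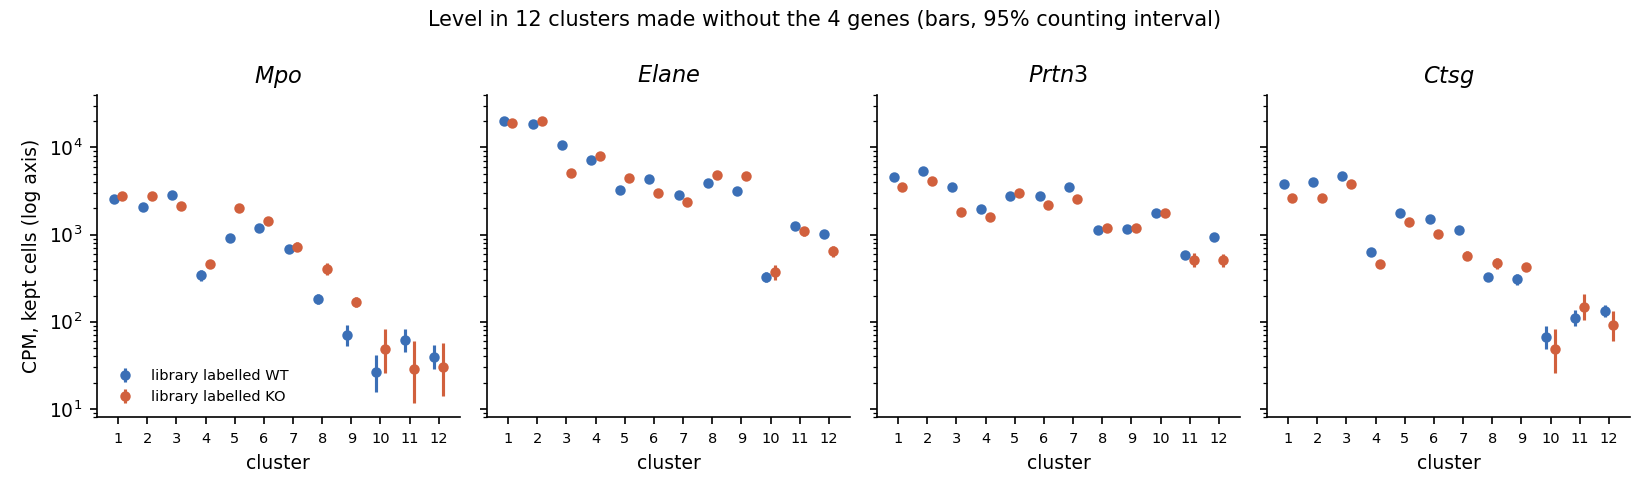
CPM of each gene (vertical log axis) in 12 clusters made without the 4 genes and numbered by their summed level, for both libraries, with 95% Poisson intervals. *Prtn3* spans the narrowest range, 9.12-fold and 8.22-fold, and in cluster 10 it stays at 1764 and 1772 CPM while the other 3 are at or near their lowest.

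*Prtn3* was the most abundant of the 4 genes in clusters 7 and 10, and *Elane* in the other 10 clusters. Cluster 7, led by *Itgb7*, *Pld4* and *Ctss*, was classed by its markers as monocyte or macrophage, as was cluster 10. In cluster 7 *Prtn3* was at 3503 and 2572 CPM in WT-labelled and KO-labelled cells and *Elane* at 2854 and 2379 CPM. *Prtn3* was 42.9 and 41.1% of the UMIs of the 4 genes there. In the macrophage-like cluster 10 *Prtn3* stood at 1764 CPM (1666 to 1867) in 444 WT-labelled cells and 1772 CPM (1615 to 1939) in 205 KO-labelled cells, and a UMI was seen in 70.5% (66.0 to 74.7) and 64.9% (57.9 to 71.4) of cells at medians of 1396 and 1150 UMIs. *Elane* was at 327 and 372 CPM there, *Ctsg* at 66.0 and 48.9 CPM, and *Mpo* at 26.4 and 48.9 CPM. Of the UMIs of the 4 genes, *Prtn3* was 80.8% (78.7 to 82.8) and 79.0% (75.5 to 82.2) in cluster 10, against 19.9 and 17.3% over all kept cells. In these cells *Mpo* was seen in 4.05% (2.42 to 6.33) and 4.88% (2.36 to 8.79) and *Ctsg* in 7.66 and 5.85%, and the granulocyte-like clusters 11 and 12 showed *Mpo* in 4.32 to 8.05% of cells. *Ctsg* was seen there in 15.2 and 18.9% of WT-labelled and 19.8 and 10.8% of KO-labelled cells. The share that free RNA alone would give was not measured.

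**Figure D5:**
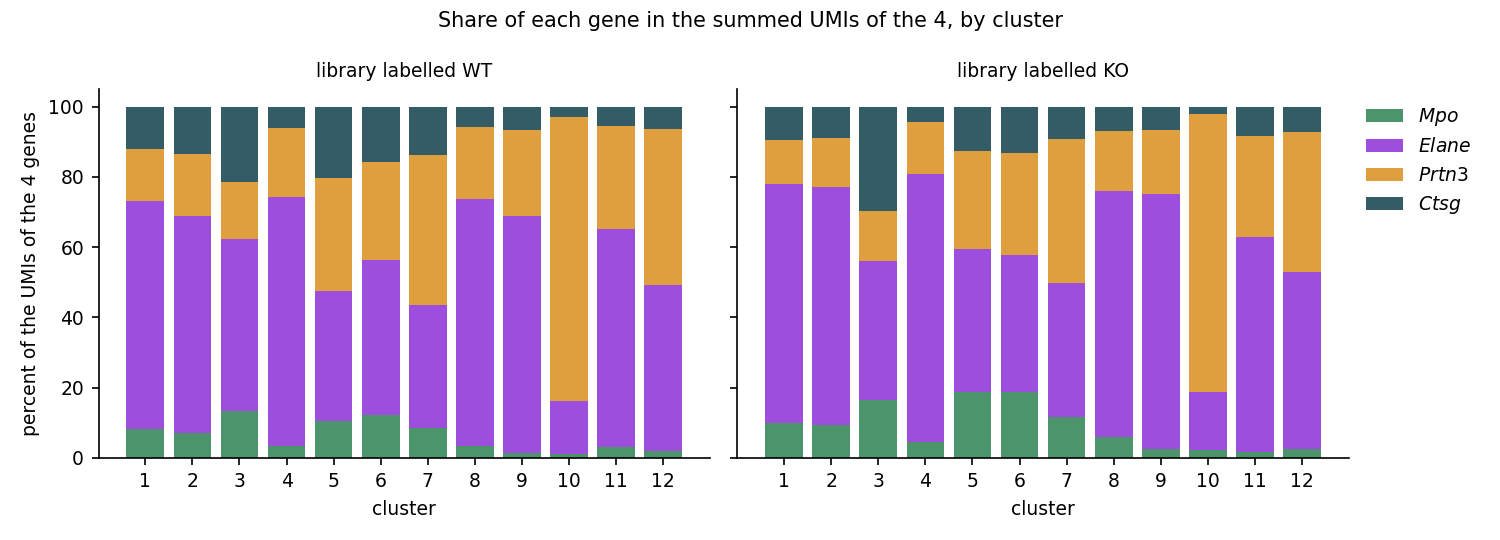
Percent of the summed UMIs of the 4 genes that each contributed (vertical axis, 0 to 100) in each of 12 clusters (horizontal axis), for both libraries. *Prtn3* makes up 80.8% (labelled WT) and 79.0% (labelled KO) in cluster 10, and *Elane* is the largest part in most other clusters.

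Between the libraries, *Mpo* was higher in the KO-labelled library in 9 of 12 clusters, with the interval above 0 in 7 and below 0 in 1, and *Elane* in 6, with 5 above and 5 below. *Prtn3* was higher in 4, with 1 interval above 0 and 7 below, and *Ctsg* in 3, with 2 above and 7 below. The summed level was higher in 5 of 12, in 3 of 8 when 8 clusters were made, in 10 of 16 with 16, and in 7 of 12 when the 4 genes entered the clustering, so that this count follows the grouping. Cluster 3 differed most for *Elane*, at 10600 CPM labelled WT and 5098 CPM labelled KO, a log2 ratio of −1.06 (−1.10 to −1.01), and for *Prtn3*, at 3510 and 1840 CPM, a ratio of −0.93 (−1.003 to −0.862). *Mpo* and *Ctsg* in the same cells were at −0.44 (−0.51 to −0.37) and −0.29 (−0.35 to −0.24). All cluster ratios are at the cells' own depth. The median depth was 4778 and 3994 UMIs in cluster 3 and 3118 and 2216 UMIs in cluster 9, labelled WT and KO. How many of all genes differ as much within a cluster was not counted.

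In the other direction, *Mpo* was at 908 CPM labelled WT and 2042 CPM labelled KO in cluster 5, led by *Ly6e*, *Pik3ip1* and *H2-DMa*. The log2 ratio was 1.17 (1.01 to 1.33). *Mpo* was seen in 37.7 and 39.3% of these cells, shares not at equal depth, with medians of 2214 and 1328.5 UMIs. It was at 70.3 and 169 CPM in cluster 9, led by *Nusap1*, *Ube2c* and *Spc25*, a ratio of 1.27 (0.82 to 1.74), where *Elane* was at 3153 and 4678 CPM, a ratio of 0.57 (0.50 to 0.64). Clusters 4, 5 and 9 held 15.6, 16.1 and 15.3% of kept KO-labelled cells and 5.69, 4.94 and 5.85% of those labelled WT. With 1 library per genotype, a cluster mostly of 1 library cannot be told apart from that library.

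Lists of genes with a role near the 4 were set beside them, and their counts can be read against the 8247 genes seen in 1% or more of kept cells, of which 16% were past 1.5-fold in either direction. Of 11 partners in the granule, 10 were detected in at least 1% of kept cells, 5 of them higher and 5 lower in the KO-labelled library and 0 past 1.5-fold, with a median log2 ratio of 0.08 beside 0.00 over the 8247 genes. *Ctsc*, which activates the proteases, was at 133 and 152 CPM (0.20, 0.09 to 0.31), *Srgn*, which packs them, at 1982 and 1776 CPM (−0.16, −0.19 to −0.13), and *Serpinb1a*, an inhibitor of elastase, proteinase 3 and cathepsin G, at 1935 and 1731 CPM (−0.16, −0.19 to −0.13). *Cd63*, a granule membrane protein gene, was at 1414 and 1787 CPM (0.34, 0.31 to 0.37). Of 11 genes for folding of the *Mpo* product or for heme synthesis, 10 were detected at that share, 3 higher and 7 lower, with a median of −0.08, and *Alad*, an enzyme gene of heme synthesis, was past 1.5-fold at 19.2 and 37.2 CPM (0.96, 0.70 to 1.21). The chaperone genes *Calr* and *Canx* were at −0.26 (−0.33 to −0.19) and −0.49 (−0.61 to −0.38).

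Of 6 listed genes of early neutrophil cells, 5 were higher in the KO-labelled library, and the median log2 ratio of the list was 0.25. Of the 8247 genes 49.5% were higher there, and of the 2737 seen in 10% or more of cells 60.2%. In the same cells *Elane*, *Prtn3* and *Ctsg* were lower labelled KO, at −0.13, −0.39 and −0.43, and *Mpo* was at 0.12. The rho with the sum of the 4 genes was 0.00 and 0.03 for *Fcnb* and −0.06 and 0.06 for *Igsf6*, labelled WT and KO. For *Ms4a3* it was 0.39 and 0.34. *Nkg7* was past 1.5-fold at 196 and 317 CPM (0.69, 0.61 to 0.77), *Fcnb* was at 845 and 1252 CPM (0.57, 0.53 to 0.61), *Ms4a3* at 683 and 792 CPM (0.21, 0.16 to 0.26), and *Igsf6* was the 1 lower, at a log2 ratio of −0.25 (−0.34 to −0.16). Of 12 transcription factors of the lineage, 11 had a row in the files, 5 higher and 6 lower, with a median of −0.06. *Irf8*, a factor of the monocyte branch, was past 1.5-fold at 171 and 104 CPM (−0.72, −0.84 to −0.60), *Gfi1*, a repressor needed for neutrophil formation, was at 57.7 and 40.0 CPM (−0.53, −0.72 to −0.33), and *Spi1*, which encodes PU.1, at 697 and 734 CPM (0.07, 0.02 to 0.12). Of the 5 secondary granule genes, *Lcn2* at 3341 and 1867 CPM (−0.84, −0.87 to −0.81) and *Mmp8* at 76.5 and 34.3 CPM (−1.16, −1.36 to −0.96) were past 1.5-fold, while *Ngp* was at 26642 and 31445 CPM (0.24, 0.23 to 0.25).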

How the data were processed

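The data were 2 droplet single-cell libraries, 1 per genotype. Per the labels and the study's methods, the authors sorted cells, made Chromium 3′ libraries and ran Cell Ranger (version 1.3.1 and build mm10 in the submitters' notes, while the methods name another version), and they deposited 1 matrix of raw UMI counts per gene and called cell, which was not normalized. The labels do not say which barcode ending is which genotype, and this was taken from the study's published code.

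The 4 genes and all gene lists were chosen with earlier results of these data known. Counts were summed per library and scaled to CPM. Levels carry exact Poisson intervals, shares exact Clopper-Pearson intervals and ratios exact conditional binomial intervals, all at 95%. PCR duplicates were already collapsed by UMI, and intervals cover counting error only. With 1 library per genotype no test was run. Cells with 500 or more genes were kept. Thinning drew 1000 UMIs per cell without replacement. Clusters came from k-means (12 clusters, 10 starts, 20 principal components of ln values). A class name needed 3 markers raised 1.5-fold and 2 among the 10 leading genes, a rule set after earlier results were seen. Clusters 4 and 8 (granulocyte) and cluster 7 (monocyte or macrophage) also met it and are mostly called here by number. Doublets were kept: Scrublet marked 5 of 8309 cells by its own threshold, too few for the caller to have worked, so its highest-scoring cells were left out as an alternative. Genes named besides the 4 were the 10 most and 5 least correlated with their sum, the first of each gene's own list, list members seen in 1% or more of kept cells, cluster leading genes and genes overlapping the 4. *Cebpd* was not matched in the gene table used here. A comparison of the protein sequences was planned and not run. The intervals and the ratio were checked on simulated counts. Python 3.11.15, numpy 2.4.6, scipy 1.17.1, scikit-learn 1.9.0 and scanpy 1.11.5 were used.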

Additional observations from a re-analysis of the deposited data

How the results depend on the processing

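The log2 ratios of CPM (labelled KO over WT) depended on which cells carried the weight. In the order *Mpo*, *Elane*, *Prtn3*, *Ctsg* and the 4 summed, they were 0.0393, −0.20, −0.44, −0.50 and −0.26 in all deposited cells, 0.45, 0.23, −0.16, −0.33 and 0.10 with each cell thinned to 1000 UMIs, 0.54, 0.25, −0.22, −0.27 and 0.12 with 1500 UMIs, 0.69, 0.33, −0.17, 0.0768 and 0.24 in cells matched on total UMIs, and 0.0452, −0.20, −0.46, −0.50 and −0.26 with median-of-ratios size factors. With 1000 or more detected genes the first 4 were 0.22, −0.17, −0.50 and −0.19. The median of the 2737 genes moved between 0 under these size factors and 0.11 in matched cells. Taking the 4 genes out of the total, leaving out the cells highest in Scrublet score (5%) or the 10 cells with most UMIs of the gene, and reweighting clusters to the WT shares stayed within the counting intervals. So did leaving out 45 kept cells whose barcode sequence occurs in both libraries, an alternative chosen after seeing the data.

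At own depth the difference in the share of cells with a UMI was 1.49 percentage points for *Mpo*, 3.57 for *Elane* and −1.39 for *Ctsg*, and *Ctsg* stood at 3.94 with 1500 UMIs, with an interval above 0 there alone. All CV ratios moved by at most 0.1 on the log2 scale. For the last over the first class of secondary granule UMIs, a limit of 20 gave −3.31 and −2.85 for *Mpo*, −1.25 and −0.32 for *Elane*, −1.56 and −1.22 for *Prtn3* and −2.83 and −2.29 for *Ctsg* (labelled WT, then KO), and 1500 UMIs gave −2.55 and −1.87, −0.46 and 0.13, −1.19 and −0.91, and −2.15 and −1.67. Of 24 values of rho, 23 moved by at most 0.1, and *Prtn3* with *Ctsg* labelled WT was 0.59 on ln values at own depth. The number of genes past 1.5-fold was 401 of 4341 with a 5% filter, 3677 of 13082 with 1 UMI or more in both libraries as the only filter, 290 of 2737 in thinned cells and 392 of 2737 in cells matched on total UMIs, the last chosen after seeing the data. The summed level was higher labelled KO in 3 of 8 clusters and 10 of 16. The cause was not tested where no value above shows it. No paired analysis was possible because each genotype has a single library.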

Other observations

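Cells with under 500 detected genes held few primary granule transcripts, with *Prtn3* the least reduced. The 203 such WT-labelled cells and 695 labelled KO gave 1228 CPM (1087 to 1382) and 1920 CPM (1816 to 2028) of the 4 genes together, which is 0.0875 and 0.156 of the level in kept cells. *Prtn3* was at 390 CPM (312 to 481) and 723 CPM (660 to 791), or 0.140 and 0.339 of its level in kept cells, against 0.0762 and 0.123 for *Elane*. Their medians of 1063 and 907 UMIs per cell are low, so few detected genes and low depth go together in them.

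Of the genes lying within 100 kb, 3 of 10 neighbours of *Mpo* were detected in at least 1% of kept cells, as were 10 of 16 for *Elane* and 10 of 17 for *Prtn3*, each counted among the other's neighbours. In either set 6 of the 10 were lower in the KO-labelled library, with a median log2 ratio of −0.06. The detected genes of these sets are the same apart from *Elane* and *Prtn3*, both counted as lower. Of the 8247 genes seen in 1% or more of kept cells, 49.5% were higher in that library. Of 9 neighbours of *Ctsg*, *Mcpt8*, a basophil protease gene, was the 1 detected in at least 1% of kept cells, with 800 UMIs labelled WT and 994 labelled KO and a log2 ratio of CPM of 0.87 beside −0.43 for *Ctsg*. Next to *Mpo*, the related peroxidase genes *Lpo* and *Epx* had 0 UMIs in both libraries and 3 and 6 UMIs. A count of 0 in these libraries does not show that a transcript is absent. Next to *Elane* and *Prtn3*, *Prss57* was at 209 and 239 CPM (0.19, 0.10 to 0.28), *Cfd* had 3 and 2 UMIs, and *Arid3a* was at 29.0 and 11.9 CPM (−1.29, −1.63 to −0.95).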
